A study of Caenorhabditis elegans with 2 samples.

Results

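The loci described here are the piRNA genes of Caenorhabditis elegans, examined for binding of MEP-1, a zinc-finger protein, in whole embryos. They were chosen by annotation alone: every nuclear gene with the Ensembl biotype piRNA on the WBcel235 assembly, which is the ce11 build of the files. That gave 15363 piRNA genes of 46890 annotated nuclear genes, and each was scored from 500 bp upstream of its 5′ end to its 3′ end, a window of 521 bp. The assay was chromatin immunoprecipitation sequencing (ChIP-seq), which recovers DNA fragments bound by a tagged protein, of eGFP-tagged MEP-1 in 2 biological replicates of 1 group. The animals were strain OP70, which carries the transgene wgIs70 with tagged mep-1 in an unc-119(ed3) background, and both replicates were embryos of mixed stage and mixed sex. The tagged protein was therefore made from an inserted copy, and all values come from whole organisms. The study has no other condition, which leaves no test over samples, and the comparisons are between classes of loci. In whole embryos, binding in few cells and weak binding in many cells cannot be told apart.

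piRNAs of this worm, also called 21U-RNAs, are short RNAs that guide the Piwi-class Argonaute PRG-1 to foreign and self transcripts in germ cells. Each piRNA gene is its own small transcription unit, and most lie in large clusters on chromosome IV. A conserved upstream element, the Ruby motif, marks many of them, and a complex of PRDE-1, SNPC-4, TOFU-4 and TOFU-5 occupies the clusters in the germline. MEP-1 works with the chromatin remodeller LET-418/Mi-2 and the histone deacetylase HDA-1 to repress germline genes in somatic cells, and it has been linked through the SUMO pathway and PIE-1 to piRNA-directed silencing. Mixed-stage embryos hold germline precursors among many somatic cells.

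The piRNA genes were uniform in length and start. All had an annotated length of 21 bp, their 15363 sequences were distinct, and 14784 of them (96.2%) began with T on the sense strand. Chromosome IV held 14714 (95.8%) and the other nuclear chromosomes held 649. By position, 9417 (61.3%) were intergenic, 5012 (32.6%) lay in introns of protein-coding genes, 695 overlapped coding sequence and 239 overlapped untranslated exons. The core of the Ruby motif, searched as CTGTTTCA on the strand of the gene and wholly within 100 bp upstream, was present at 5209 genes (33.9%). The same search upstream of protein-coding genes found it at 109 of 19973 (0.546%). The core ended 37 to 41 bp upstream of the piRNA 5′ end at 4668 of the 5209 genes with the core. Because neighbouring windows overlap, the windows together covered 3.62 Mb, or 3.61% of the nuclear genome.

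The sequences below, read from the WBcel235 genome, show what a piRNA locus with and without the core looks like. Each gives 60 bp upstream and the 21 bp of the gene, 5′ to 3′ on the strand of the gene. The core (where present) and the annotated 21 bp, called the mature sequence here, are in capitals. As annotated, 21ur-1 begins with A and is not among the 96.2% that begin with T. 21ur-1 is a well-studied piRNA gene of the clusters, 21ur-8889 and 21ur-6651 are genes with the core whose windows held the strongest MEP-1 summits among such genes, and 21ur-13751 and 21ur-7304 are genes without the core close to strong summits. They lie, in the order printed, at chrIV:16687047-16687127, chrIV:15571175-15571255, chrIV:15984670-15984750, chrII:1320673-1320753 and chrIII:7189965-7190045, all on the plus strand and all intergenic.
21ur-1: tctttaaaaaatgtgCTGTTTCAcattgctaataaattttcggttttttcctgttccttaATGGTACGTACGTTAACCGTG
21ur-8889: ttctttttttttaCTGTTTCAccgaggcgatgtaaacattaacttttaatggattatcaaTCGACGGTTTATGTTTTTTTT
21ur-6651: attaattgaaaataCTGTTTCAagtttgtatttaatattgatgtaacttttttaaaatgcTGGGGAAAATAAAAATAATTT
21ur-13751: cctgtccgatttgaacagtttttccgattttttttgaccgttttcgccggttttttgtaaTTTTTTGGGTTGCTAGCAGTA
21ur-7304: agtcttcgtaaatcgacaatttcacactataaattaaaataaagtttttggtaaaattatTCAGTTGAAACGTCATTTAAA

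The sequence under 2 MEP-1 summits in piRNA windows is shown for comparison. The strongest of all and the strongest on chromosome IV beside a gene with the core are printed as the 121 bp centred on the summit, plus strand, with the summit base in capitals. They lie at chrII:1320543-1320663, 130 bp upstream of the 5′ end of 21ur-13751, and at chrIV:15571014-15571134, 161 bp upstream of that of 21ur-8889.
Summit near 21ur-13751: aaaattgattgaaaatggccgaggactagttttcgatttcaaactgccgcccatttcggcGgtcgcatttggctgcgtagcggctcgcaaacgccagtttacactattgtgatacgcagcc
Summit near 21ur-8889: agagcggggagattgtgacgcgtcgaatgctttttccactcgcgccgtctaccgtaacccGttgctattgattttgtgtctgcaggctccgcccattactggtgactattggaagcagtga
Their GC content was 49.6% and 52.9%, against 38.3% and 28.4% for the printed loci of 21ur-13751 and 21ur-8889.

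The deposited lists give regions, each with the authors' signal value (a strength given by the peak caller) and a summit. The pooled list holds 30000 candidate regions, background included, and the thresholded set after the irreproducible discovery rate procedure (the IDR set) holds 2404, or 8.01% of the pooled candidates. The IDR set was the 2404 strongest pooled regions. Replicate 1 had 25192 nuclear candidates and replicate 2 had 30000, and to compare them with the IDR set the 2404 strongest of each were used. The lists give no read numbers, so the depth of each library is unknown. The 95% intervals on shares are exact binomial (Clopper-Pearson) and those on densities exact Poisson, and both cover counting error only. No signal value was set against one of another list.

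MEP-1 summits of the IDR set were rare at piRNA genes. Of the 15363 piRNA genes, 59 had one in their window (0.384%, interval 0.292 to 0.495%). By comparison, 9.09% of protein-coding genes had one between 500 bp before and 20 bp after the 5′ end, and 1.24% of consecutive 521-bp windows over the nuclear genome held one. The 2404 strongest regions of replicate 1 placed a summit at 58 piRNA genes and those of replicate 2 at 56, so the count differed little between the replicates. The genes themselves overlapped less. Between the replicates, 28 genes were shared, of 58 with replicate 1 (48.3%) and 56 with replicate 2. Of the 59 genes in the IDR set, 38 (64.4%) were also found with replicate 1 and 47 (79.7%) with replicate 2, and 28 were in all 3 lists. The IDR set comes from the pooled regions, so it is not independent of either replicate. The same overlap over all genes was not counted, so whether piRNA genes reproduced less well than others is unknown. The count follows the length of the window, with 23 genes for 250 bp upstream and 126 for 1000 bp.

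Among gene classes of at least 100 members, piRNA genes had the lowest share. Over the same 521 bp, pseudogenes stood next at 15 of 2128 (0.705%, interval 0.395 to 1.16%), an interval that overlaps that of piRNA genes. Other classes of small RNA gene had higher shares: 65 of 346 small nucleolar RNA genes (18.8%, interval 14.8 to 23.3%), 78 of 612 transfer RNA genes (12.7%, interval 10.2 to 15.6%) and 20 of 261 microRNA genes (7.66%, interval 4.74 to 11.6%). Genes of one class can share a summit, so these shares are counts of genes and not of independent binding sites.

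**Figure D1:**
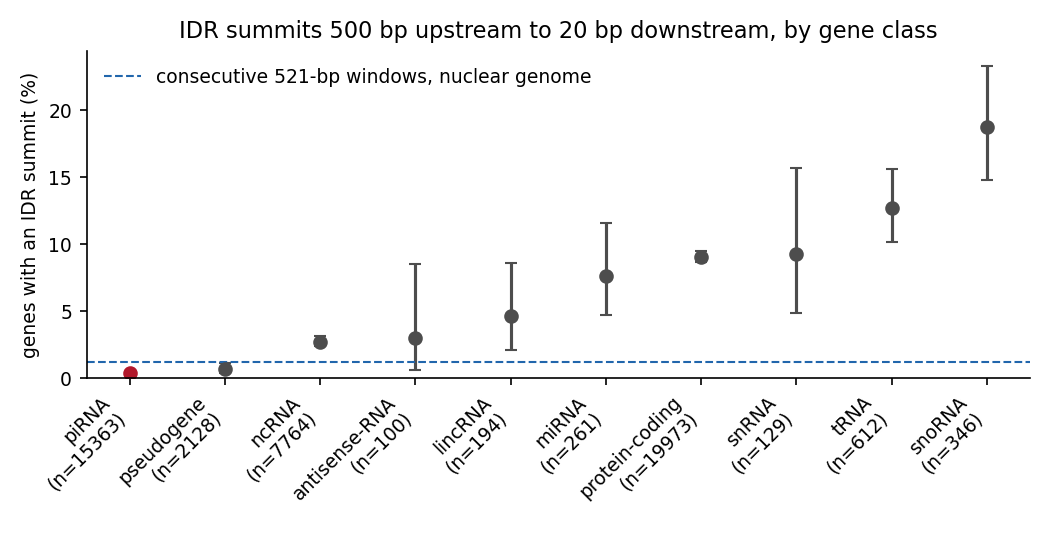
Share of genes (percent, vertical axis) with an IDR summit between 500 bp before and 20 bp after the 5′ end, for gene classes of at least 100 members (horizontal axis). Points are shares, bars are exact binomial 95% intervals, and the dashed line marks the 1.24% of consecutive 521-bp windows; piRNA genes are at 0.384%, below that line.

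The 59 piRNA genes rested on 40 distinct summits, because windows of neighbouring genes overlap: 29 summits lay in 1 window only and 1 lay in 5. The summits per Mb were 11.1 in piRNA windows and 24.5 in the rest of the nuclear genome. The strongest regions of each replicate gave 9.95 in windows and 24.5 outside for replicate 1, and 10.2 in windows and 24.5 outside for replicate 2. Both replicates therefore placed fewer strong summits per base in piRNA windows than elsewhere. All 40 summits had a replicate 2 candidate summit within 100 bp, and 34 had one in replicate 1. The same shares over all IDR summits were not counted, so whether these 40 differ from others in this is unknown.

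The few genes off chromosome IV accounted for a large part of these summits. On the other chromosomes 18 of 649 piRNA genes had an IDR summit (2.77%, interval 1.65 to 4.35%), whereas on chromosome IV 41 of 14714 did (0.279%, interval 0.200 to 0.378%). Replicate 1 gave 2.00% off and 0.306% on chromosome IV, and replicate 2 gave 2.93% off and 0.251% on it. Of the 18 genes, 6 were on chromosome I, 5 each on II and III, 2 on X and none on V, where 202 piRNA genes lie. A count of 0 of 202 allows a share of up to about 1.49%, taken as 3 divided by the number of genes and not as an exact interval. Of these windows, 16 held a pooled candidate summit. Promoters of protein-coding genes, taken as the 1000 bp before and the 200 bp after an annotated 5′ end, moved with this difference: 14 of the 17 summits off chromosome IV lay in one, against 7 of the 23 on it. Promoters are a usual place for IDR summits. Among all IDR summits of chromosome IV, 44 of 78 in the dense bins defined below and 194 of 276 in the other bins lay in one. The same share for all IDR summits off chromosome IV was not counted. Where a piRNA window overlapped such a promoter, 16 of 228 genes off chromosome IV had a summit (7.02%), against 9 of 2356 on it (0.382%).

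The summits off chromosome IV were also the stronger ones by the authors' signal value. Their median was 77.0 (lowest 35.8, highest 129.7, n = 17), against 41.4 for those on chromosome IV (lowest 37.3, highest 68.1, n = 23). Over all 40 the median was 46.6, against 52.4 for the IDR summits outside windows. The values of both sets overlapped, but 11 of the 12 strongest summits in piRNA windows were off chromosome IV, and none of the 23 on it ranked among the 500 strongest of the IDR set.

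**Figure D2:**
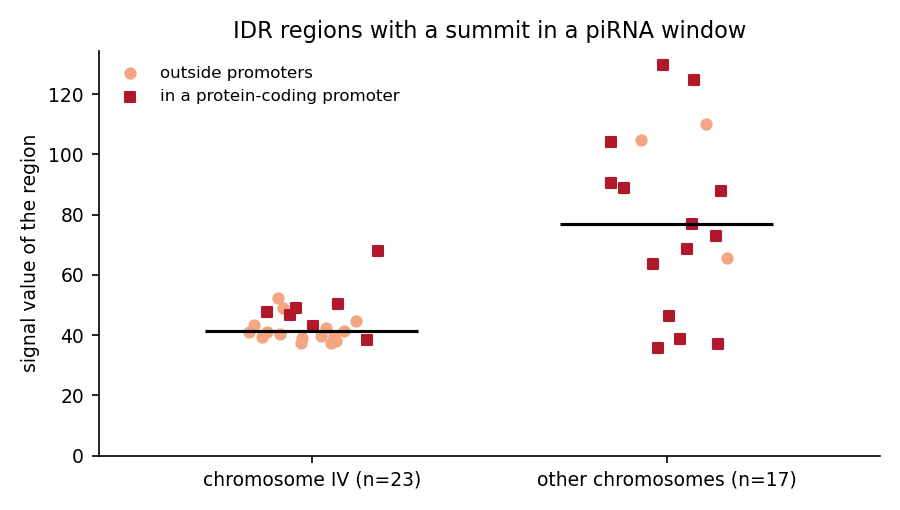
Signal value (vertical axis, the authors' unit of strength) of the 40 IDR regions with a summit in a piRNA window, on chromosome IV (n = 23) and on other chromosomes (n = 17). Each point is 1 region, squares lie in a protein-coding promoter, and lines are medians (41.4 and 77.0).

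Most of the 12 strongest summits lay at the starts of protein-coding genes that neighbour a piRNA gene: 10 were in protein-coding promoters, and all 12 had candidates in both replicates. Most IDR summits of chromosome IV were in promoters too, by the counts given above. The strongest, signal 129.7 with 29.0 in replicate 1 and 99.8 in replicate 2, was 130 bp upstream of 21ur-13751 and 434 bp upstream of vig-1, which encodes an RNA-binding protein of the RNA-induced silencing complex. The next, signal 124.7 with 17.5 in replicate 1 and 108.0 in replicate 2, was 108 bp upstream of 21ur-12279 and at the annotated start of atp-1, an ATP synthase subunit gene. Ribosomal protein genes were nearest at 3 of the 12. The summit 84 bp upstream of 21ur-12380 (signal 110.0) lay 371 bp downstream of the start of rpl-19, the one 65 bp upstream of 21ur-11631 (104.2) lay 262 bp upstream of rpl-24.1, and the one 110 bp upstream of 21ur-7304 (90.6) lay 284 bp upstream of rps-21.

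The other 7 were near genes of several functions. 21ur-14806 lay 428 bp downstream of a summit of signal 104.8 in an intron of T24B8.3. 21ur-11529 was 121 bp from a summit of 88.8 near smc-5, a subunit gene of the SMC-5/6 genome maintenance complex, and 21ur-15024 was 487 bp from one of 87.9 in an untranslated exon, 178 bp downstream of the start of K10B3.5. 21ur-12756 (77.0, near D2005.4), 21ur-12807 (73.0, near wee-1.3, a kinase gene of the cell cycle) and 21ur-14951 (68.5, near ned-8, which encodes a ubiquitin-like protein) followed. The single one on chromosome IV was 68 bp upstream of 21ur-13227 and 258 bp upstream of ppm-1.H, a protein phosphatase gene, with signal 68.1. No gene of the 12 had the Ruby core, and none of these summits was in a dense cluster. However, 11 of the 12 lay off chromosome IV, where the core is rare and no dense clusters were defined.

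Summits in windows but outside every protein-coding promoter numbered 19, of which 16 were on chromosome IV. The 5 strongest were those of 21ur-12380 and 21ur-14806, named above, and those of 21ur-13808, 21ur-7825 and 21ur-8889. 21ur-13808, on chromosome III, was 110 bp downstream of a summit of signal 65.6, for which replicate 1 had 3.54 and replicate 2 had 61.3. 21ur-7825, in a cluster on chromosome IV, was 481 bp from a summit of 52.2 that had no replicate 1 candidate within 100 bp and 47.7 in replicate 2. The summit at 21ur-8889, printed above, had 49.0, with 14.7 in replicate 1 and 32.5 in replicate 2, and it lay in 5 overlapping windows and 6647 bp from the nearest protein-coding 5′ end. These last 2 are the strongest on chromosome IV outside promoters, and no value among the 16 was higher than 52.2.

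In the dense clusters the IDR set held next to nothing close to the piRNA genes themselves. Outside those clusters some summits did lie close, such as those 65 bp upstream of 21ur-11631 and 68 bp upstream of 21ur-13227. No summit of the IDR set, of the strongest regions of replicate 1 or of those of replicate 2 lay inside a mature piRNA sequence or within 60 bp upstream of a gene with the core. Weaker candidates did lie there: 32 pooled summits inside a mature sequence and 34 within 60 bp upstream of a core gene, with 31 and 24 in replicate 1 and 40 and 37 in replicate 2. Over the dense clusters, defined next, the 1.82 Mb from 100 bp before to 99 bp after the nearest piRNA 5′ end held 1 IDR summit (0.549 per Mb, interval 0.0139 to 3.06). The 1.32 Mb lying 800 bp or more from any piRNA 5′ end held 45 (33.97 per Mb, interval 24.8 to 45.5). The strongest regions of replicate 1 gave 2.19 per Mb close to the genes and 38.5 far from them, and those of replicate 2 gave 0.549 close and 32.5 far.

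In the dense clusters the density was lower towards the genes from both sides. Downstream, it was 33.6 per Mb beyond 800 bp, 22.1 between 400 and 800 bp, 25.01 between 200 and 400 bp, 10.6 between 100 and 200 bp and 0 in the first 100 bp. Upstream, it was 34.4 beyond 800 bp, 16.2 between 400 and 800 bp, 13.0 between 200 and 400 bp and 4.19 between 100 and 200 bp. The pooled candidates were also fewer close to the genes, with 106 per Mb from the 5′ end to 49 bp downstream, against 272 per Mb beyond 800 bp, but not at 200 to 400 bp upstream, where they had 294.7 per Mb, against 263.6 beyond 800 bp upstream. Base composition moved with distance too: the GC content was 28.02% within 100 bp of a piRNA 5′ end and 37.3% beyond 800 bp.

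**Figure D3:**
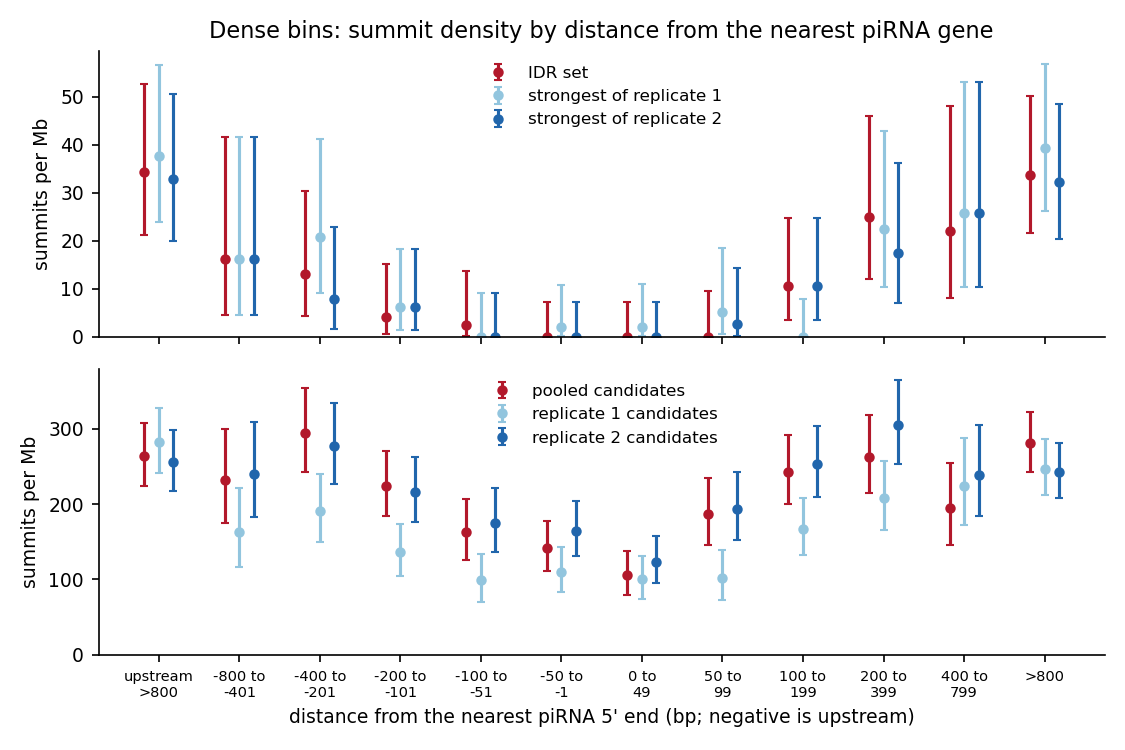
Summits per Mb (vertical axes) by distance in bp from the nearest piRNA 5′ end (horizontal axis, negative upstream) in the dense bins of chromosome IV. Upper panel, IDR set and the 2404 strongest regions of each replicate; lower panel, all candidates; bars are exact Poisson 95% intervals. The IDR set had 0 summits from 50 bp upstream to 99 bp downstream and 34.4 and 33.6 per Mb beyond 800 bp on either side.

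The genes with and without the Ruby core had shares whose intervals overlapped. With the core, 16 of 5209 genes had an IDR summit (0.307%, interval 0.176 to 0.498%), and without it 43 of 10154 did (0.423%, interval 0.307 to 0.570%). All 18 genes off chromosome IV with a summit lacked the core, but few piRNA genes there have it. By chromosome the core was present at 4.94% (X) to 11.5% (III) of them, against 35.1% on chromosome IV. On chromosome IV alone the order was the other way, 16 of 5164 with the core (0.310%) against 25 of 9550 without it (0.262%). With the core the count was 16 in each replicate as well, while without it the replicates gave 42 and 40 over all chromosomes. The size of the difference depended on the window: with 250 bp upstream 1 gene with the core (0.0192%) and 22 without it (0.217%) had a summit, and with 1000 bp 43 with the core (0.825%) and 83 without it (0.817%) did.

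The clusters were defined on chromosome IV as 100-kb bins with at least 50 piRNA genes. There were 54 dense bins with 14124 piRNA genes (261.6 ± 108.3 per bin, SD) and 121 other bins with 590. They formed 3 runs, from 4.8 to 6.3 Mb with 2375 piRNA genes, from 6.4 to 6.6 Mb with 239, and from 13.6 to 17.3 Mb with 11510. The question put to them was whether MEP-1 summits were more or less frequent across a cluster than along the rest of the chromosome.

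Dense bins held fewer IDR summits, with wide overlap between single bins. They averaged 1.44 ± 1.30 summits per bin (SD, n = 54), against 2.28 ± 1.57 in the other bins (SD, n = 121), a ratio of 0.633. Replicate 1 gave 1.59 in dense and 2.22 in other bins (ratio 0.716), and replicate 2 gave 1.35 in dense and 2.25 in other bins (ratio 0.601). The difference was therefore smaller than the SD over bins but had the same direction in both replicates. No summit was found in 14 of the 54 dense bins (25.9%), against 12 of the 121 other bins (9.92%). Dense bins also held fewer protein-coding 5′ ends, 14.7 ± 7.0 against 20.5 ± 6.5, and had a lower GC content, 32.7% against 35.5%. Values per protein-coding gene are given with the promoters.

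**Figure D4:**
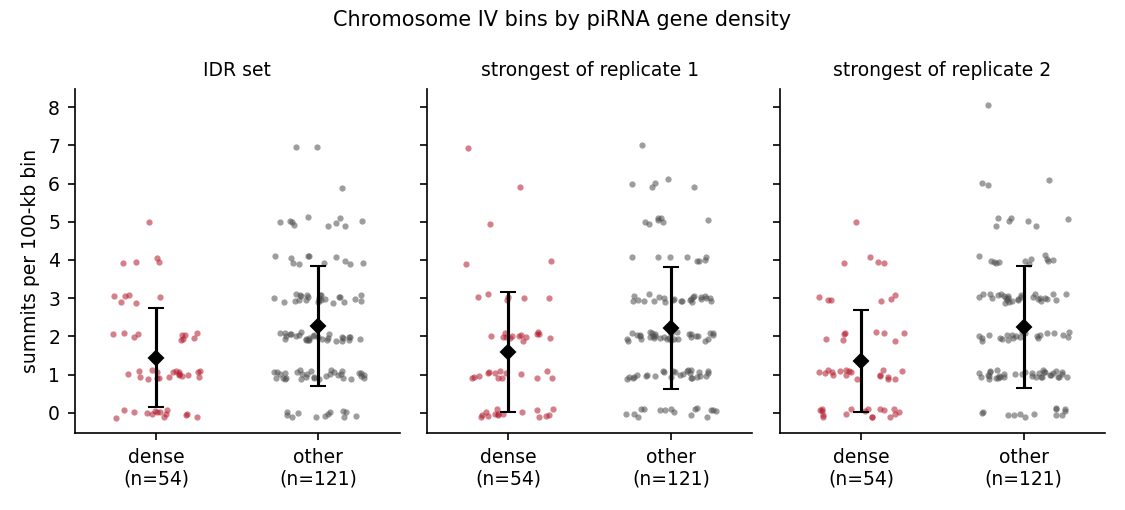
Summits per 100-kb bin of chromosome IV (vertical axis) in dense bins with at least 50 piRNA genes (n = 54) and in other bins (n = 121), for the IDR set and for the 2404 strongest regions of each replicate. Points are bins with a small random offset, diamonds are means and bars are SDs; the IDR means are 1.44 in dense and 2.28 in other bins, and single bins overlap.

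The 3 runs of clusters had different means, with wide overlap between single bins. The run from 4.8 to 6.3 Mb averaged 1.80 ± 1.37 IDR summits per bin (SD, n = 15), the short run 2.50 ± 2.12 (n = 2) and the long run from 13.6 to 17.3 Mb 1.24 ± 1.21 (n = 37). Of their summits, 8 of 27, 1 of 5 and 7 of 46 lay in piRNA windows. In the same order, the runs held 289, 46 and 460 protein-coding 5′ ends, at a mean GC content of 33.5%, 33.1% and 32.3%. The 5 dense bins with most summits started at 5.3 Mb (5 summits), and at 14.6, 16.4, 5.9 and 6.5 Mb (4 each). In the first, the strongest had signal 65.3 near F41H10.3 and 1 of the 5, of signal 42.95, was 33 bp upstream of hda-6, a histone deacetylase gene, and 80 bp upstream of 21ur-11261. The bin at 16.4 Mb had its 2 strongest, 75.1 and 58.6, at 3436 and 2748 bp upstream of rho-1, the nearest protein-coding start, which encodes a small GTPase, and none of its 4 summits was in a piRNA window. In the bin at 5.9 Mb one summit, of signal 67.7, was 370 bp upstream of the ribosomal protein gene rps-25, and the bin at 6.5 Mb held the strongest of these bins, 121.1, near F38A5.2.

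The 5 bins richest in piRNA genes were poor in summits. The bin at 16 Mb, with 486 piRNA genes, had 1 IDR summit (signal 40.4, in an intron, 2533 bp downstream of the start of jac-1 and in the windows of 21ur-12378, 21ur-1368 and 21ur-6144). The bins at 15.8 Mb and 15.3 Mb, with 442 and 430 piRNA genes, had none. The bin at 14.9 Mb (423 piRNA genes) had 1, of signal 77.8, and that at 15.2 Mb (413) had 2, of which 1 lay 32 bp upstream of Y73F8A.5. Over the 54 dense bins the Spearman correlation of piRNA genes with IDR summits was −0.29. The correlation of piRNA genes with protein-coding 5′ ends was −0.66, and with GC content −0.73. IDR summits themselves correlated at 0.09 with protein-coding 5′ ends and at 0.38 with GC content. All of these are descriptions across neighbouring bins of 1 chromosome in 1 set.

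Within the dense bins, the low count was in the piRNA windows and not in the sequence between them. Windows held 16 IDR summits in 3.02 Mb (5.29 per Mb, interval 3.02 to 8.59), and the sequence of the same bins outside windows held 62 in 2.38 Mb (26.1 per Mb, interval 20.01 to 33.5), a ratio of 0.203. Outside windows the density was 26.1 per Mb in dense bins and 22.7 in other bins. Windows of the other bins had no lower value, with 26.8 per Mb (interval 10.8 to 55.3, from 7 summits). By gene, 33 of 14124 piRNA genes in dense bins had an IDR summit (0.234%). In the other bins of chromosome IV 8 of 590 did (1.36%, interval 0.587 to 2.65%), against 1.24% of the 521-bp windows of the nuclear genome. The 16 summits in windows of dense bins had a median signal of 41.2 (lowest 37.3, highest 52.2). Of these, 13 lay outside protein-coding promoters, as did 2.64 of the 3.02 Mb of window sequence. The nearest piRNA gene had the core at 8 of the 16, while 35.1% of all piRNA genes on chromosome IV have it. A replicate 1 candidate was found for 12, and the same share over all IDR summits was not counted. In dense bins the ratio of windows to the sequence between them was 0.208 with replicate 1 and 0.155 with replicate 2. Among all pooled candidates the same ratio was 0.766, with 0.572 in replicate 1 and 0.867 in replicate 2, so the difference was larger among strong regions than among all candidates.

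Promoters of protein-coding genes inside the clusters divided in the same way. Promoter sequence outside piRNA windows had 85.2 IDR summits per Mb in dense bins (interval 61.1 to 115.6) and 73.8 in other bins (interval 63.7 to 85.1). Promoter sequence inside piRNA windows had 7.72 per Mb in dense bins (interval 1.59 to 22.6, from 3 summits) and 65.6 in other bins (interval 17.9 to 167.9, from 4 summits). Away from promoters, dense bins had 4.93 per Mb inside windows (interval 2.63 to 8.43) and 11.1 outside them (interval 6.86 to 16.9).

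Counted by gene, 60 of 795 protein-coding genes in dense bins had an IDR summit in the promoter (7.55%, interval 5.81 to 9.61%), against 276 of 2486 in other bins (11.1%, interval 9.89 to 12.4%). The share over all 19973 protein-coding genes was 11.4%. In dense bins, 14 of 515 genes whose promoter overlapped a piRNA window had a summit (2.72%, interval 1.49 to 4.52%), and 46 of 280 without overlap did (16.4%, interval 12.3 to 21.3%). The genes without overlap in other bins had 266 of 2325 (11.4%, interval 10.2 to 12.8%). Replicate 1 gave 2.33% with and 16.8% without overlap in dense bins, and replicate 2 gave 2.14% with and 16.4% without it. Protein-coding genes standing free of piRNA windows in the clusters thus had no lower share than those elsewhere on the chromosome.

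piRNA windows are rich in A and T, and the counts moved with this. The median GC content of the 521 bp around each base was 29.8% in piRNA windows of chromosome IV and 35.1% outside them, whereas it was 38.8% around the 23 IDR summits in windows and 36.3% around the 331 outside. Where local GC was under 28%, windows held 0 IDR summits in 1.08 Mb (at most 3.42 per Mb by the interval). Outside windows the value was 2.94 per Mb (interval 0.606 to 8.58, from 3 summits), so the intervals overlap. From 28 to 31% they held 0 in 0.908 Mb (at most 4.06 per Mb), against 12.4 per Mb outside, and from 31 to 34% they had 3.05 per Mb (interval 0.369 to 11.0), against 24.4 outside (interval 19.2 to 30.7). From 34 to 37% windows still had the lower value, 19.8 per Mb (interval 7.97 to 40.8), against 26.7 outside (interval 21.1 to 33.3), with intervals that overlapped. At 37% or more they had the higher one, 48.3 (interval 26.4 to 81.1), against 28.7 outside (interval 24.3 to 33.6), again with overlap.

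Both replicates had the same order at each end of this scale. Under 31% GC, neither had a summit of its 2404 strongest in a piRNA window of chromosome IV. At 37% or more, replicate 1 had 58.7 per Mb in windows and 32.6 outside, and replicate 2 had 41.4 in windows and 30.4 outside. From 34 to 37%, replicate 1 had 14.2 per Mb in windows and 26.01 outside, and replicate 2 had 11.3 in windows and 22.6 outside. The density of strong summits was thus lower in windows in each band under 37% GC, but under 28% too few summits lay outside windows to tell. Pooled candidates were also fewer in windows in each band under 34%. From 34 to 37% they had 303 per Mb in windows and 307 outside. At 37% or more they had 445 in windows (interval 372 to 529) and 324 outside (interval 309 to 339). The part of base composition in the counts at piRNA genes was not tested further.

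**Figure D5:**
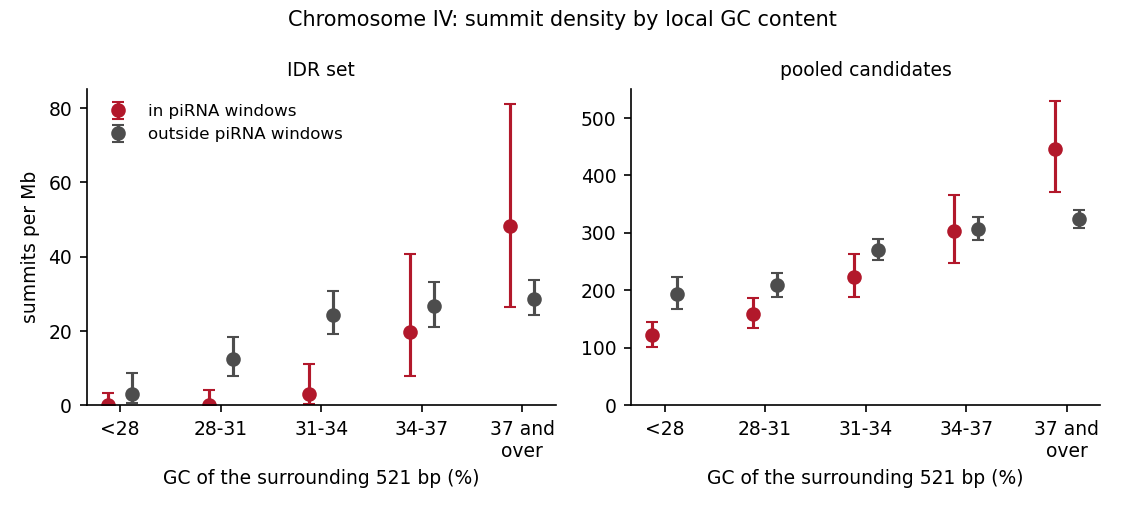
Summits per Mb of chromosome IV (vertical axes) by GC content of the surrounding 521 bp (horizontal axis, percent), in piRNA windows and outside them, for the IDR set (left) and all pooled candidates (right). Bars are exact Poisson 95% intervals; in the IDR set windows had 0 summits below 31% GC and 48.3 per Mb at 37% or more.

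Weaker candidate regions were more common at piRNA genes, again at a lower share than elsewhere. In the pooled list 1464 piRNA genes (9.53%, interval 9.07 to 10.005%) had a candidate summit in the window, against 26.4% of protein-coding genes and 14.9% of the 521-bp windows of the genome. Replicate 2 had 1596 such genes and replicate 1 had 1020, from lists of different length. Candidates per bin were 21.8 ± 10.5 in dense bins (SD, n = 54) and 29.1 ± 11.3 in other bins (SD, n = 121), with 17.4 in dense and 24.3 in other bins for replicate 1 and 22.2 in dense and 29.3 in other bins for replicate 2. Of the pooled candidates in piRNA windows of dense bins 2.75% belonged to the IDR set, against 10.4% of those between the windows.

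21ur-1, a gene with the core that ends 38 bp upstream, lay inside a cluster with no summit nearby. It is on chromosome IV at 16687107 to 16687127 on the plus strand, in a bin with 358 piRNA genes, and its window held no candidate of any list. The nearest pooled candidate summit was 2738 bp away, with signal 21.4, and the nearest IDR summit was 30.6 kb away. The replicates' nearest candidates, at 2692 bp in replicate 1 and 2737 bp in replicate 2, were at the same place as the pooled one.

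Some protein-coding genes of the piRNA and related small RNA pathways, as opposed to the piRNA genes, carried MEP-1 summits in their promoters. Of a list of 29 such genes, 28 matched a protein-coding gene of the annotation (prg-2 did not), and 10 of the 28 had an IDR summit in the promoter (35.7%), against the 11.4% of all protein-coding genes given above. The strongest regions of replicate 1 gave 6 genes and those of replicate 2 gave 12, so this count rests on replicate 2 more than on replicate 1. With pooled candidates 17 of the 28 had one, against 39.2% of all protein-coding genes.

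By role, 1 of 7 genes for transcription, 4 of 10 for processing and 5 of 11 for Argonautes and their partners had an IDR summit. Among the strongest regions of replicate 1 the counts were 1, 3 and 2 in the same order of roles, and for replicate 2 they were 3, 4 and 5. Of the transcription genes, isw-1, which encodes a chromatin remodeller, had such a region in both replicates (ranks 2191 in replicate 1 and 874 in replicate 2). For ints-11, an Integrator subunit, replicate 2 had one (rank 2130). Neither gene had an IDR summit in the promoter, nor a pooled candidate of any strength. Of the complex that sits on the clusters, only snpc-4 had one (signal 40.5, 234 bp upstream, with 6.40 in replicate 1 and 30.9 in replicate 2), and prde-1, tofu-4 and tofu-5 had none. Among genes listed under processing, summits lay 131 bp upstream of pid-3 (54.0), 153 bp upstream of tost-1 (51.9) and 451 bp upstream of ife-3 (47.1). These genes encode proteins of the PETISCO complex. The form of PETISCO with TOST-1 is not the one that handles piRNA precursors. The summit 179 bp upstream of tofu-1 (44.96), a precursor cleavage factor, was nearer to the start of ruvb-1. None was in the IDR set at pid-1, tofu-6, erh-2, tofu-2, parn-1, which encodes the trimming enzyme of piRNA 3′ ends, or henn-1, which encodes their methyltransferase.

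In the last group, prg-1 itself, deps-1, hrde-1, wago-1, csr-1 and nrde-1 had no IDR summit in the promoter. The summit 323 bp upstream of nrde-4, a nuclear RNA interference factor, had signal 89.1, with 22.2 in replicate 1 and 65.9 in replicate 2. That of nrde-2 (91.5) was 929 bp upstream and nearer to atad-3. Those of wago-4 (51.2), an Argonaute of small RNA inheritance, and mut-16 (38.8), the scaffold of Mutator foci, were 210 and 491 bp upstream. The summit 188 bp upstream of rde-3 (48.5), which Ensembl lists as mut-2, was 14 bp from the start of K04F10.3. A shared promoter cannot be assigned to one gene from a summit, which applies to tofu-1, nrde-2 and rde-3.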

How the data were processed

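ChIP-seq of eGFP-MEP-1 was measured in 2 replicates of mixed-stage embryos. Per the labels, the authors deposited candidate regions for each replicate and for the pooled reads, and a thresholded set after the irreproducible discovery rate (IDR) procedure. The deposited signal value of each region and its −log10 q-value were given by the authors' peak caller, and regions were ranked by signal here because all regions of the IDR set share 1 −log10 q-value. They used an aligner, a caller and an IDR threshold not given in the sources used here. A control alignment is named in the descriptions of the pooled list and of replicate 1, and none in that of the ce11 list of replicate 2.

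Gene models were those of Ensembl release 115 on WBcel235, and sequences were read from the RefSeq genome of the same build. A member had a summit when the summit base lay in its 521-bp window. piRNA genes were placed in 100-kb bins by their 5′ end. Counting used Python 3.11.15, numpy 2.4.6, pandas 2.3.3 and scipy 1.17.1, and was tested on simulated summits with known positions. Text names the 12 strongest IDR summits in piRNA windows, the 5 strongest outside promoters, the 5 dense bins with most summits and the 5 with most piRNA genes, 21ur-1, and every pathway gene with a promoter summit. Members, lists and comparisons were chosen with earlier results of these data known, and the bands of GC content after the counts were seen. Alternatives were other windows, bins, density minimums and promoter limits, the stronger part of the IDR set, and each replicate alone. The ce10 lists were not used.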

Additional observations from a re-analysis of the deposited data

Results flagged for a closer look

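Outside the nuclear lists used for the piRNA comparisons, replicate 1 listed 24 candidate regions on the mitochondrial chromosome, while the lists of replicate 2, of the pooled reads and of the IDR set had 0 there.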

How the results depend on the processing

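No paired analysis was possible because there is only 1 group. The lower counts in dense than in other bins and the lower promoter share kept their direction in every alternative run. IDR summits per bin stood at a ratio of 0.633, with 0.508 for summits in protein-coding promoters, 0.929 for those outside, and 0.601 to 0.716 with single replicates. The pooled ratio was 0.750, with 0.715 to 0.757 for single replicates. The ratio of promoter shares was 0.680, with 0.730 for a minimum of 25 piRNA genes, 0.640 for 50-kb bins, 0.706 for shifted bins, 0.728 for the stronger part of the IDR set and 0.699 to 0.732 for single replicates. The count of 59 piRNA genes became 23 with 250 bp upstream, 126 with 1000 bp, 94 where any base of a region counted and 15 with the stronger part of the IDR set, since each of these changes the sequence searched or the number of peaks; single replicates gave 56 to 58. In the same order of windows the 1464 pooled genes became 714, 2864 and 2364, and 1020 to 1596 with single replicates. The ratio of shares with over without the core, 0.725, turned to 1.01 with 1000 bp and to 1.18 on chromosome IV alone (an alternative chosen after seeing the data), was 0.0886 with 250 bp and 0 with the stronger part of the IDR set, and 0.743 to 0.780 with single replicates; the cause was not tested. The 10 pathway genes became 6 to 12 with single replicates (also chosen after seeing the data). Of 47 alternative values, 25 moved by less than the SD over the replicates' values or, for counts, by less than 1.5 times. The single-replicate values behind this SD are among the 47, and placing piRNA genes by their 3′ end changed no ratio. The tally is therefore not an independent measure of stability. Read depth is unknown, embryos are mixtures of cells, and 6 of the 40 summits in windows had no replicate 1 candidate. The share of all IDR summits without one was not counted.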
